A study of Mus musculus with 8 samples.

Results

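The gene Trp53, which encodes the transcription factor p53, and 9 of its target genes were followed in ovarian tumours of mice given the kinase inhibitor AZD1480 or its vehicle. The targets were Cdkn1a, Mdm2, Ccng1, Trp53inp1, Sesn1, Zmat3, Phlda3, Perp and Aen. A gene was included when non-control spots of the arrays carried its name in the deposited scanner output. All 10 genes were found, of 19778 genes tested. They were chosen as p53 and known targets of it, by name and not by a threshold on their values, at a time when earlier results of these data were known.

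All 8 tumours came from female mice of the strain labelled C57BL/6JTgMISIIR-TAg, 1 tumour per mouse, at a size of about 500 mm3. In this transgenic line the promoter of Amhr2, the receptor for anti-Müllerian hormone, drives SV40 T antigen. Controls and treated mice alike carried the transgene, so no tumour without T antigen was available for comparison. The 4 vehicle mice received 0.5% hypermellose with 0.1% Tween 80, the 4 treated mice received 30 mg/kg AZD1480, an inhibitor of JAK1 and JAK2, in the same vehicle, and tissue was taken 6 h later.

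p53 is a transcription factor that is kept scarce by MDM2, an E3 ubiquitin ligase that marks it for degradation and is itself encoded by a p53 target, which closes a feedback loop. After DNA damage or oncogene stress p53 accumulates and induces genes that stop the cell cycle, promote cell death, repair DNA or adjust metabolism. Large T antigen of SV40 binds p53 and blocks its activity as a transcription factor. These arrays measured RNA, and neither p53 protein nor T antigen was measured here.

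p53 binds response elements built of decamer half-sites, usually in pairs. The decamers are shown because they are the sequence feature that these genes are expected to share, and the capitals mark each match to the p53 half-site. RefSeq promoter windows on GRCm38.p6, which run from 250 bases before to 50 bases after a transcription start, were held for 7 of the 10 genes (10 windows). Trp53inp1, Zmat3 and Perp had none. The half-site, which reads the same on both strands, was found in 7 of the 10 windows and in 6 of the 7 genes. Over all windows of the same length it was found in 2745 of 32851 (8.36%), and in 2582 of 27025 genes (9.55%). Of 38 other p53 targets with a window, 7 (18.4%) held it, in 7 of their 51 windows (13.7%). Being a match of letters, it is not a measured binding site. Phlda3 held no match in its window. Each sequence is given 5′ to 3′ on the strand of its gene.
Cdkn1a: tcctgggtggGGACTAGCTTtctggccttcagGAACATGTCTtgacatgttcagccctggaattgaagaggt
Trp53: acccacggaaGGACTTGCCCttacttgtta
Mdm2: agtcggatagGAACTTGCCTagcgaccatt
Ccng1: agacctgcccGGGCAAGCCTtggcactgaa
Aen: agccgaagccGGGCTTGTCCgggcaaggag
Sesn1: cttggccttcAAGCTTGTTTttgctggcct

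The Cdkn1a stretch lies at chr17:29090896-29090967 on the plus strand, at bases -83 to -12 from the more upstream of the gene's 2 starts, and it holds 2 half-sites. The second of these is followed directly by a decamer with 1 mismatch to the half-site. The Ccng1 stretch lies at chr11:40755452-40755481 on the minus strand, and its half-site is preceded directly by a decamer with 1 mismatch. The other stretches lie at chr11:69580274-69580303 for Trp53, chr10:117710925-117710954 for Mdm2 (minus strand), chr7:78895927-78895956 for Aen and chr10:41887256-41887285 for Sesn1. All of the half-sites shown are upstream of a start of their gene, and for Aen and Sesn1 this is the second start in the table. Aen's stretch also lies within the window of its first start.

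Expression was read with one-colour arrays, a separate array for every tumour. A value below is the log2 processed intensity of a gene's probe minus the 75th percentile of its array, called the level, and levels of different genes are not comparable because each comes from its own probe. The arrays lay on 2 slides, with 2 vehicle and 2 AZD1480 arrays on each. Replicates 1 and 2 of both groups were on slide 1 and replicates 3 and 4 on slide 2. Between 66.9% and 76.4% of spots were well above background. Slide 1 was brighter, with array 75th percentiles from 4706 to 5795 intensity units, than slide 2, with 1587 to 2783. The array of AZD1480 replicate 1 stood apart, with a median correlation of 0.887 with the other arrays, against 0.958 to 0.972 for the other 7. In that tumour the log2 of the summed level of 7 ciliated cell markers was 0.035, against 5.15 to 5.85 in the others, and Foxj1, a regulator of motile cilia, was at -2.11 against 3.44 to 4.17. Its summed epithelial tumour, macrophage, fibroblast, B cell and adipocyte markers (5.11, 3.74, 3.50, -3.59 and -3.58) were also the lowest of the 8. Its summed granulosa markers (7.34) were the highest. The part of these markers in the values below was not tested, and values that turn on this tumour are given without it as well. Of 10 epithelial tumour markers, 8 were well above background on all 8 arrays, among them Krt8, Krt18, Epcam and Pax8. The granulosa marker Foxl2 was at 3.36 to 3.76 in the 8 tumours, but the other granulosa markers were not as even. Amhr2 ranged from -0.66 to 6.93 and Inha from -4.07 to 4.54, and Fshr and Cyp19a1 were not well above background in most tumours. Well above background on all 8 arrays were also 9 of 10 macrophage, 4 of 7 T cell, 6 of 6 endothelial and 7 of 7 fibroblast markers. In such whole tissue fewer cells of a type and less RNA per cell cannot be told apart. Of the macrophage markers, Cd163 did not rise well above background in any tumour. All 10 probes of Trp53 and its targets were well above background on all 8 arrays and saturated on none.

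None of the 10 genes differed between AZD1480 and vehicle by limma at an adjusted p under 0.05 over all genes (0 of 10, with 0.0% of all genes called). Adjusted p ranged from 0.977 to 0.997 for the 10. At an unadjusted p under 0.05 the count was again 0 of 10, against 3.48% of all genes. For no gene were the 2 groups free of overlap, against 2.58% of all genes. The difference, AZD1480 minus vehicle, was above 0 for 10 of the 10 genes, as it was for 56.3% of all genes. Its median over the 10 was 0.27, beside 0.043 over all genes. The 10 genes vary together in part and do not count as 10 separate observations, as the pairs of genes described further on show.

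**Figure D1:**
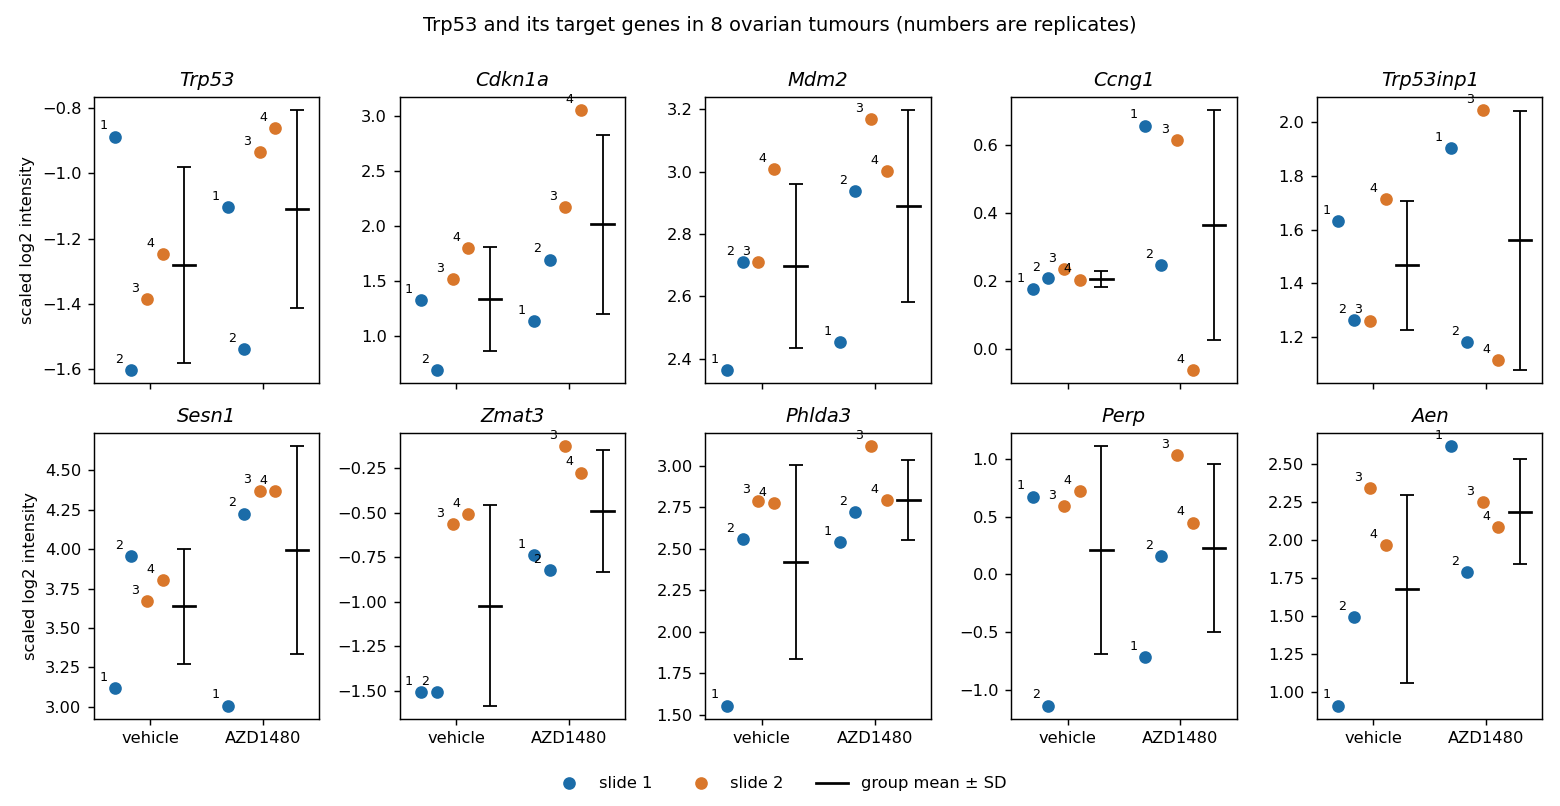
Level of each gene (log2 intensity minus the array's 75th percentile) in 4 vehicle and 4 AZD1480 tumours, numbered by replicate and coloured by slide, with the group mean and SD beside the points. The groups overlap for all 10 genes, and the vertical scale differs between panels.

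Trp53 itself was measured by a single probe whose 60 bases are given because every Trp53 value rests on them, at chr11:69404204-69404263 on the mm9 build that the array design uses.
Trp53 probe: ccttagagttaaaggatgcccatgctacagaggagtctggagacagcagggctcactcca

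The level of Trp53 was -0.89, -1.60, -1.39 and -1.25 in the 4 vehicle tumours and -1.10, -1.54, -0.93 and -0.86 in the 4 AZD1480 tumours. The lowest tumour in both groups was replicate 2, and 1 AZD1480 tumour lay just above every vehicle tumour. The difference was 0.17 ± 0.22 (limma's moderated SE), with a 95% interval of -0.34 to 0.69, which includes 0. Its sign was not steady, with -0.077 within slide 1 and 0.42 within slide 2, and leaving out each array in turn gave 0.064 (without vehicle replicate 2) to 0.31 (without AZD1480 replicate 2). Trp53 had an SD of 0.29 over the 8 tumours, lower than that of most genes (33.1st percentile).

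Cdkn1a encodes p21, the inhibitor of cyclin-dependent kinases through which p53 halts the cell cycle. Its level was 1.33, 0.70, 1.52 and 1.80 with vehicle and 1.14, 1.70, 2.17 and 3.05 with AZD1480. AZD1480 replicates 3 and 4 exceeded every vehicle tumour, while replicates 1 and 2 lay within the vehicle range. The difference was the largest of the 10 at 0.68 ± 0.43, a 1.60-fold ratio, with a 95% interval of -0.31 to 1.67 and an adjusted p of 0.977 by limma. Within slide 1 it was 0.40 and within slide 2 it was 0.95. Without AZD1480 replicate 4 it was 0.33, and without AZD1480 replicate 1 it was 0.97 ± 0.38. Cdkn1a was read by 10 spots of a probe at chr17:29237377-29237436 (mm9). A second probe, at chr17:29227986-29228045, for which the array design lists only the alternative transcript, was much dimmer. It read -5.46, -5.28, -3.92 and -3.39 with vehicle and -3.18, -4.47, -2.62 and -3.74 with AZD1480. The groups overlapped there as well, and the difference was 1.01 ± 0.58 (adjusted p = 0.954 over all probes by limma). Over the 8 tumours the 2 Cdkn1a probes correlated at only 0.49.

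Mdm2 encodes the ligase that restrains p53. The level of Mdm2 was 2.36, 2.71, 2.71 and 3.01 with vehicle and 2.45, 2.94, 3.17 and 3.00 with AZD1480. Replicate 1 was the lowest tumour of both groups, and the remaining tumours were intermingled. The difference of 0.19 ± 0.21 (95% interval -0.30 to 0.69) was smaller than the SD of either group, 0.26 for vehicle and 0.31 for AZD1480. It was 0.082 without vehicle replicate 1 and 0.34 without AZD1480 replicate 1. Ccng1 encodes cyclin G1, a p53 target that takes part in the same feedback. Its level was 0.18, 0.21, 0.24 and 0.20 in the vehicle tumours and 0.66, 0.25, 0.61 and -0.060 in the AZD1480 tumours. The vehicle tumours were almost identical, with an SD of 0.025, whereas the AZD1480 tumours had an SD of 0.34 and lay on both sides of them. The means differed by 0.16 ± 0.19, and by 0.061 without AZD1480 replicate 1 or 0.30 without AZD1480 replicate 4. The difference in spread was not tested.

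Trp53inp1, Perp, Aen and Phlda3 stand on the cell death side of the pathway. Trp53inp1 encodes a nuclear protein that promotes p53-dependent apoptosis, and its level was 1.63, 1.26, 1.26 and 1.71 with vehicle and 1.90, 1.18, 2.04 and 1.11 with AZD1480. The highest and the lowest tumour of all 8 were both AZD1480 tumours, on a difference of 0.093 ± 0.26 that ranged from -0.069 to 0.24 when each array was left out. A second Trp53inp1 probe gave 0.34 ± 0.34 and followed the first only loosely (r = 0.37 over the 8 arrays). Perp encodes a membrane protein of desmosomes that also acts in p53-dependent apoptosis. Its level was 0.67, -1.13, 0.59 and 0.72 with vehicle and -0.72, 0.16, 1.03 and 0.45 with AZD1480. One vehicle tumour, replicate 2, and one AZD1480 tumour, replicate 1, were low, and the difference was 0.019 ± 0.52, or -0.43 without the first and 0.33 without the second of these tumours. The interval for Perp, -1.18 to 1.22, was the widest of the 10.

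Aen encodes an exonuclease that is induced by p53 and promotes DNA degradation in apoptosis. Its level was 0.91, 1.49, 2.34 and 1.96 with vehicle and 2.62, 1.79, 2.25 and 2.08 with AZD1480. The lowest and the highest tumour were replicate 1 of vehicle and of AZD1480, both on slide 1. The difference of 0.51 ± 0.33 was 1.01 within slide 1 and 0.013 within slide 2. It was 0.25 without vehicle replicate 1 and 0.36 without AZD1480 replicate 1. The second Aen probe, which starts 10 bases from the first on the mm9 build and overlaps it, gave 0.53 ± 0.32. Phlda3 encodes a pleckstrin homology protein that competes with AKT for membrane lipids and so dampens survival signalling. Its level was 1.56, 2.56, 2.79 and 2.77 with vehicle and 2.54, 2.72, 3.12 and 2.80 with AZD1480. Vehicle replicate 1 lay well below the other 7 tumours. The Phlda3 difference of 0.38 ± 0.30 became 0.087 when that tumour was left out.

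Sesn1 encodes sestrin 1, which limits mTORC1 signalling under stress, and Zmat3 encodes a zinc finger protein that binds RNA. The level of Sesn1 was 3.12, 3.96, 3.67 and 3.81 with vehicle and 3.01, 4.23, 4.37 and 4.37 with AZD1480. AZD1480 replicates 2, 3 and 4 exceeded every vehicle tumour and replicate 1 was the lowest of all 8. The Sesn1 difference was 0.36 ± 0.35 over all tumours and 0.68 ± 0.22 without AZD1480 replicate 1 (unadjusted p = 0.0174 and adjusted p = 0.997 by limma). It was 0.18 without vehicle replicate 1, the lowest vehicle tumour. Without AZD1480 replicate 1, Cdkn1a and Sesn1 were the 2 of 10 genes at an unadjusted p under 0.05 with higher levels, against 2.19% of all genes. The level of Zmat3 was -1.51, -1.51, -0.56 and -0.51 with vehicle and -0.74, -0.82, -0.12 and -0.27 with AZD1480. Within each slide both AZD1480 tumours were above both vehicle tumours, by 0.73 on slide 1 and 0.33 on slide 2. Across slides the groups overlapped, and the Zmat3 difference was 0.53 ± 0.31. With slide as a covariate its SE was 0.14 and its unadjusted p 0.00692, but the adjusted p was 0.884 by limma. In that fit 1 of the 10 genes was higher at an unadjusted p under 0.05, against 2.33% of all genes. The count was also 1 of 10 within slide 1 (Zmat3, against 0.637% of all genes), within slide 2 (Sesn1, against 1.65%) and with array weights (Sesn1, against 3.03%), and none had an adjusted p under 0.05.

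**Figure D2:**
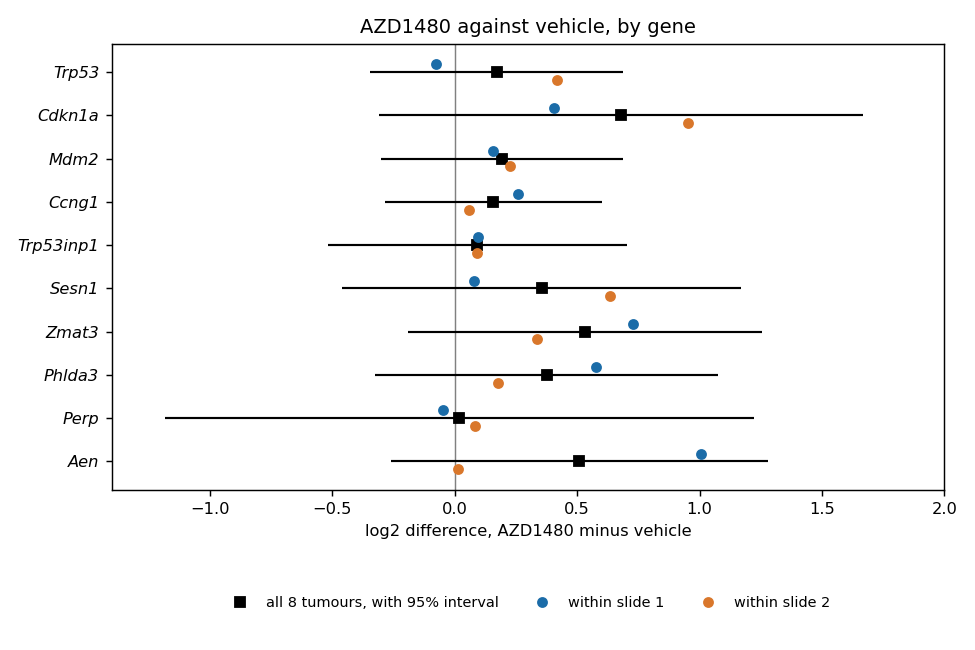
Log2 difference (AZD1480 minus vehicle) of each gene over all 8 tumours, with its 95% interval from limma, and within each slide (2 tumours against 2). Every interval includes 0, and the within-slide values lie below 0 for Trp53 and Perp on slide 1.

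For several of these genes the difference between slides was larger than the difference between groups. Slide 2 minus slide 1, from the fit with both terms, was 0.78 ± 0.14 for Zmat3 (unadjusted p = 0.000947, adjusted p = 0.196 by limma) and 0.92 ± 0.29 for Cdkn1a (unadjusted p = 0.0157, adjusted p = 0.299). For Perp it was 0.95 ± 0.42, for Phlda3 0.53 ± 0.25 and for Sesn1 0.48 ± 0.33. It was between -0.074 (Ccng1) and 0.46 (Aen) for the other 5. No gene passed the adjusted threshold for slide (0.0% of all genes), and the count of 2 of 10 higher on slide 2 at an unadjusted p under 0.05 stands against 6.95% of all genes. Each slide held both groups in equal number, so the slide does not shift the comparison of the groups, but it adds to the spread within them. Whether the slides also differ in the mice they hold cannot be told apart from the array processing.

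Variation between tumours differed widely among the genes. Perp and Cdkn1a varied most, with SDs over the 8 tumours of 0.76 and 0.71, at the 74.3rd and 72.1st percentile of all genes tested. Aen, Sesn1, Zmat3 and Phlda3 followed with 0.54, 0.53, 0.52 and 0.46. Trp53inp1 and Trp53 had 0.35 and 0.29, and Mdm2 and Ccng1 varied least, with 0.28 and 0.24.

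The 10 genes varied together over the tumours only in part. Of 45 pairs among the 10 genes, 34 had a positive Pearson correlation over the 8 arrays, with a median r of 0.27. Of these, 3 pairs, all among Mdm2, Sesn1, Zmat3 and Phlda3, passed an adjusted p under 0.05 by an exact permutation test over the 45 pairs. The same counts were not computed over pairs of other genes. Whether these 10 genes vary together more than other genes on these arrays was therefore not tested. Mdm2 and Sesn1 correlated at r = 0.91 (exact permutation p = 0.00315, adjusted 0.0472; rho = 0.83, p = 0.0154, adjusted 0.196). Mdm2 and Phlda3 correlated at r = 0.81 (exact permutation p = 0.00107, adjusted 0.0407; rho = 0.81, p = 0.0218, adjusted 0.196). Zmat3 and Phlda3 correlated at r = 0.79 (exact permutation p = 0.00181, adjusted 0.0407; rho = 0.90, p = 0.00456, adjusted 0.196). No pair passed by Spearman's rho after adjustment.

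These correlations rest in part on a few tumours. For Mdm2 and Sesn1, r was 0.69 (exact permutation p = 0.146) without vehicle replicate 1 and AZD1480 replicate 1, the 2 tumours farthest from the median of Mdm2. For Mdm2 and Phlda3 it was 0.77 (exact permutation p = 0.0819) without the same 2 tumours. For Zmat3 and Phlda3 it was 0.82 (exact permutation p = 0.0292) without vehicle replicates 1 and 2. After each slide's mean was removed, r was 0.90, 0.69 and 0.63 for the 3 pairs and none passed the adjustment, and a slide holds too few arrays (4) for a value of its own. Ccng1 and Trp53inp1 had r = 0.80 (exact permutation p = 0.0125, adjusted 0.141; rho = 0.52, p = 0.197), but r was 0.32 (exact permutation p = 0.624) without AZD1480 replicates 1 and 3, on which the value rests. With Cdkn1a and Sesn1, Ccng1 had r = -0.34 and -0.29. None of the values for Ccng1 passed the adjustment.

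**Figure D3:**
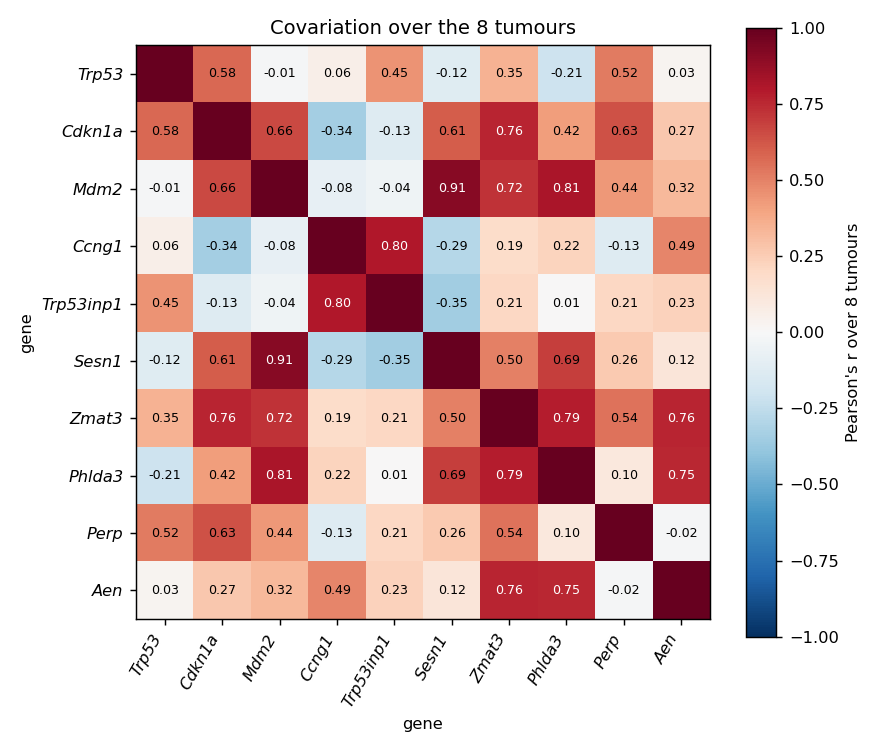
Pearson's r over the 8 tumours for each pair of the 10 genes, with red for positive and blue for negative values. Mdm2, Sesn1, Zmat3 and Phlda3 show the 3 pairs that passed the adjustment (0.91, 0.81 and 0.79), and the row of Trp53 ranges from -0.21 to 0.58.

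Trp53 RNA followed its targets weakly. Its r with the 9 targets ranged from -0.21 for Phlda3 to 0.58 for Cdkn1a (exact permutation p = 0.131, adjusted 0.449), and 0 of 9 reached an unadjusted p under 0.05. Over all genes tested, the levels most like those of Trp53 over the 8 arrays were those of Gak (r = 0.96), Atp6v1b2 (0.94) and Vcl (0.94). For Cdkn1a the most alike were Soga1 (0.98), Mbd6 (0.97) and Traf7 (0.97), and for Mdm2 they were Ttc28 (0.97), Ccdc106 (0.96) and Nes (0.95). These were picked as the highest correlations over all genes and are a description.

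The tumours with the lowest Mdm2 and Sesn1, vehicle replicate 1 and AZD1480 replicate 1, were also those with the highest Amhr2, the gene whose promoter drives the transgene. Amhr2 was at 5.50 and 6.93 in these 2 tumours and between -0.66 and 1.52 in the other 6. The log2 of the summed level of 6 granulosa markers, Amhr2 among them, was 6.03 and 7.34 there and 3.68 to 4.31 in the others. Amhr2 had the highest value of the 6 in these 2 tumours, so the sum in part repeats Amhr2. Inha was at 2.11 and 4.54 there, but also at 1.65 in vehicle replicate 3, against -4.07 to -2.69 in the remaining tumours. Of the 6 markers, 4 were well above background on all 8 arrays. Because the tumours form 2 clusters in Amhr2 no correlation is given, and its part in the levels of Mdm2 and Sesn1 was not tested. Vehicle replicate 1 also had the lowest Phlda3 and Aen, but AZD1480 replicate 1 had the highest Aen, so Aen did not follow Amhr2.

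Other genes of the pathway were taken from lists of textbook regulators and targets, and all 66 listed genes were tested. None passed the adjusted threshold, 38 differences were above 0 and 28 below, and their median was 0.041, beside 0.27 for Trp53 and its 9 targets and 0.043 for all genes. Of the 66, 4 were at an unadjusted p under 0.05, all with higher levels in AZD1480 tumours, against 1.72% of all genes in that direction. They were Mdm4, Psrc1, Gtse1 and Bax, each with an adjusted p of 0.977 by limma. Psrc1 and Bax were the 2 genes whose groups did not overlap, against 1.19% of all genes.

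Among 16 regulators of p53 (median difference 0.024, with 9 above 0), Mdm4 had the largest difference. It encodes the MDM2 partner that binds p53 and inhibits its activity. Its level was -3.16, -2.55, -2.35 and -2.73 with vehicle and -2.05, -1.88, -2.44 and -1.19 with AZD1480. AZD1480 replicate 3 lay within the vehicle tumours and the other 3 above them, on a difference of 0.81 ± 0.30 (unadjusted p = 0.0283 by limma) that ranged from 0.57 to 0.99 when each array was left out in turn. A second Mdm4 probe gave 0.52 ± 0.20. The checkpoint kinase gene Chek1 was at 0.36 ± 0.16 and the acetyltransferase gene Crebbp at 0.47 ± 0.28, or 0.21 without AZD1480 replicate 4. Of the p53 relatives, Trp63 was at 0.45 ± 0.27, or 0.22 without AZD1480 replicate 4. Trp73 was at -0.66 ± 0.64, where AZD1480 replicate 1, at -3.08, lay far below the other 7 tumours, and without it the difference was 0.052.

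Among 9 cell cycle targets (median 0.14), Gtse1, whose product restrains p53 in G2, was at 0.62 ± 0.26, and Psrc1, which encodes a spindle protein, at 0.51 ± 0.22. Psrc1 was at 0.094, 0.046, -0.37 and -0.058 with vehicle and at 0.96, 0.38, 0.29 and 0.13 with AZD1480, where every tumour was above every vehicle tumour. Without AZD1480 replicate 1 the Psrc1 difference was 0.34 and that of Gtse1 0.42. Gadd45a, which acts in arrest and repair, was at -0.42 ± 0.32, or -0.16 without vehicle replicate 4. Among 14 apoptosis and autophagy targets (median 0.020), Bax, whose product permeabilises mitochondria, was at 1.11, 1.65, 1.64 and 1.67 with vehicle and 1.98, 1.70, 1.96 and 2.36 with AZD1480. All 4 AZD1480 tumours lay above the vehicle tumours, the closest by little, and the difference was 0.48 ± 0.21. The autophagy gene Dram1 was at -0.60 ± 0.29 and the death receptor gene Fas at -0.94 ± 0.78. Both were lowest in AZD1480 replicate 1, and without it they were at -0.32 and -0.12. Without AZD1480 replicate 3, Fas was at -1.44.

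Among 11 targets in metabolism and redox control, 8 differences were above 0 (median 0.22), including Ddit4, which encodes an inhibitor of mTORC1, at 0.98 ± 0.45 and Sesn2, a relative of Sesn1, at 0.69 ± 0.31. The glutaminase gene Gls2 was at -0.30 ± 0.27. AZD1480 replicate 1 had the highest Ddit4 and Sesn2 and the lowest Gls2 of the 8 tumours. Without it the differences of Ddit4, Sesn2 and Gls2 were 0.63, 0.40 and -0.063, and that of Gls2 was -0.48 without AZD1480 replicate 2. Among 7 secreted and surface targets (median -0.027), the stress cytokine gene Gdf15 was at 0.65 ± 0.35 and Igfbp3 at -0.72 ± 0.43. Gdf15 was at 0.41 without vehicle replicate 1 and 0.42 without AZD1480 replicate 4, and Igfbp3 at -0.41 without vehicle replicate 4. Among 7 DNA repair targets, 5 differences were below 0 (median -0.14), with Xpc at -0.29 ± 0.22 (-0.14 without AZD1480 replicate 1) and Ercc5 at 0.28 ± 0.15. None of these passed the adjusted threshold.

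**Figure D4:**
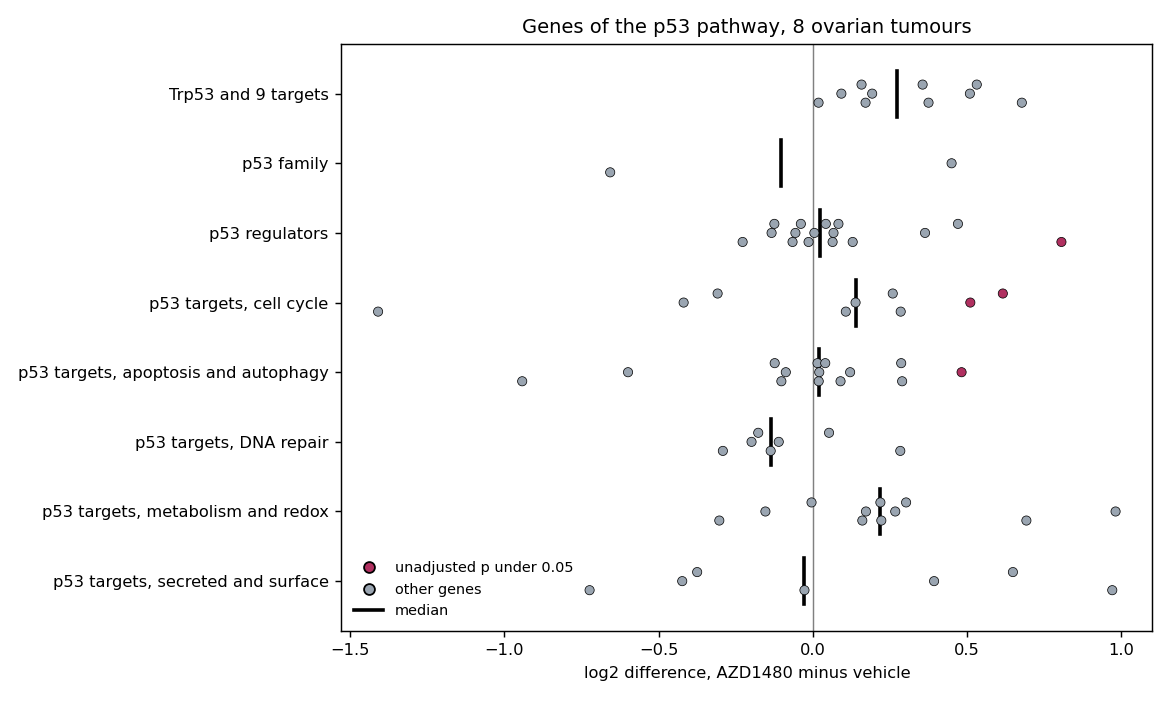
Log2 difference (AZD1480 minus vehicle) of each gene in the p53 lists, with the median of each list as a bar and genes at an unadjusted p under 0.05 in red. Those 4 genes lie above 0, the bar of Trp53 and its 9 targets is at 0.27, and the bar of the DNA repair targets is at -0.14.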

How the data were processed

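Cy3-labelled total RNA of 8 tumours was measured on Agilent arrays, 1 per tumour. Agilent Feature Extraction 9.5.3 made the spot values, per the submitters' processing notes. The deposited processed intensity has background and spatial trend removed within each array, per the file headers, and the arrays are on no common scale. A second table by the authors holds log2 values of the same arrays (column median 8.36, offset not given in the sources used here) and served as an alternative.

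Log2 processed intensities were scaled by each array's 75th percentile over non-control probes. Spots of a probe were averaged without flagged spots. A probe counted as well above background on an array when at least 50% of its spots were, and was kept when that held on at least 4 of 8 arrays. The brightest kept probe stood for a gene. Groups were compared over 19778 genes by two-sided tests in limma 3.58.1 (lmFit, then eBayes, with treatment as the term; R version 4.3.3) with Benjamini-Hochberg adjustment. The labels state separate mice. SEs are limma's moderated SEs, and the number of arrays limits the precision. Correlations had exact two-sided permutation p over the 40320 orderings of 8 arrays. The limma script was tested on simulated data.

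The genes, lists and tests were chosen with earlier results of these data known. Named were the 10 genes, pathway genes at an unadjusted p under 0.05 or among the 3 smallest p of a list (2 of these are not reported here), the 3 genes most like Trp53, Cdkn1a and Mdm2, and markers that define the tissue or were not above background. Alternatives were slide as a covariate or alone, a replicate block, normexp (offset 50), quantile and median scaling, other dim-probe filters, the mean of a gene's probes, array weights, the value table and leaving out each array. Slide differences and relations to marker lists were added after seeing the data.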

Additional observations from a re-analysis of the deposited data

Results flagged for a closer look

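In the 20 sets of 4 tumours (10 genes in 2 groups), a single tumour far from the other 3 was found in 2 sets by Dixon's test at its 95% critical value, and in 20 sets chance alone gives about 1 such finding. Sesn1 in AZD1480 replicate 1 was at 3.01, against 4.23, 4.37 and 4.37 in the other AZD1480 tumours. That array stood apart over all genes, and its level of Sesn1 is close to that of vehicle replicate 1 (3.12). Perp in vehicle replicate 2 was at -1.13, against 0.59, 0.67 and 0.72 in the other vehicle tumours. Without that tumour the Perp difference was -0.43 in place of 0.019.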

How the results depend on the processing

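With 4 arrays per group the intervals of single genes are wide, and no setting called any of the 10 genes: the count was 0 in all 20 alternatives, with a lowest adjusted p of 0.768 by limma for any of them, and 0 over all genes too (lowest 0.0638). Of 200 differences of single genes under the alternatives, 191 kept their sign and their side of the threshold and 9 reversed. Those were Trp53 within slide 1 (-0.077); Perp within slide 1 (-0.047), with median scaling (-0.033) and without vehicle replicate 2 (-0.43), AZD1480 replicate 3 (-0.25) or 4 (-0.054); and Trp53inp1 with array weights (-0.033) and without AZD1480 replicate 1 (-0.021) or 3 (-0.069). Leaving out each array gave -0.43 to 0.33 for Perp and -0.069 to 0.24 for Trp53inp1. The median difference of the 10 ranged from 0.17 to 0.35. The count at an unadjusted p under 0.05, 0 with all arrays, was 1 with slide as a covariate, within slide 1, within slide 2 and with array weights, and 0 to 2 when each array was left out in turn. It was also 1 with the replicate number as a block (Zmat3, against 2.11% of all genes). In the main fit the numbers were not treated as pairing the samples. Deviations of same-numbered tumours from their group means correlated at 0.36, 0.36, 0.13 and -0.059, and 5 of 8 arrays correlated best with their own number. Same-numbered arrays always shared a slide, so these values cannot tell a pairing from the slide. The 3 gene pairs became 0 with slide-centred values, 0 with median scaling, 0 without the 2 farthest arrays and 1 with normexp, and 0 to 1 when each array was left out; the cause was not tested.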

Other observations

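After the data were seen, 90 relations between the 10 genes and 9 lists of cell type markers were computed. Here a list stood as the mean of its markers' levels, not as the log2 of their summed level given above. That mean weighs dim markers as much as bright ones, and relations with the summed levels were not computed. Of the 90, 3 had an unadjusted p under 0.05 by exact permutation and 1 passed the adjustment. That one was Ccng1, which was lower where B cell markers were higher, with r = -0.95 over the 8 tumours (exact permutation p = 9.92e-05, adjusted 0.00893; rho = -0.93, adjusted 0.201). It was -0.91 (exact permutation p = 0.00556) without AZD1480 replicates 1 and 3. Only 1 of the 5 B cell markers was well above background on all 8 arrays, so this list is mostly dim signal. The other 2 were those of Sesn1 and Mdm2 with the granulosa list, which holds Amhr2 (adjusted p = 0.674 and 0.879, exact permutation tests), and in which 2 tumours stand apart, so no pooled value is read from them. Of the 10 genes against the epithelial marker list, Perp had the highest r, 0.67 (exact permutation p = 0.0694, adjusted 0.914; rho = 0.74). Without vehicle replicates 1 and 3 it was 0.87, but Phlda3, Zmat3 and Mdm2 then reached 0.87, 0.84 and 0.81, so this value sets Perp apart from none of them.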
